A study of Rattus norvegicus with 6 samples.

Results

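Cadherins and protocadherins were followed here through the accessible chromatin sites (ACS) that lie nearest to their genes in rat pancreatic islets. The members are all ACS whose nearest gene carries a symbol made of Cdh and digits, or starting with Pcdh, apart from *Cdh1* and *Cdh5*. They number 821 of 101603 ACS and belong to 39 gene symbols. No measured value entered this rule, although it was set with earlier results of these data known. A further 4 ACS assigned to 3 alpha protocadherin symbols written in capitals are outside the rule.

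Cadherins are calcium-dependent adhesion molecules that span the membrane and hold neighbouring cells together by binding their like on the next cell. Their cytoplasmic tails bind catenins, which couple the junction to actin. Type I cadherins such as N-cadherin (*Cdh2*) mediate strong adhesion, type II cadherins guide the sorting of cells, and the protocadherins act mostly in recognition between cells of the nervous system. In the islet, cadherin contacts keep endocrine cells together and are known to matter for insulin secretion.

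Tn5 transposase inserts sequencing adapters into open DNA, so the integrations counted in an ACS measure its accessibility. Islet cells of 3 adult male Sprague–Dawley rats gave 1 library each (Adult replicates 4, 5 and 6), and pups of both sexes at postnatal day 10 (P10) from 3 litters gave another 3 (P10 replicates 1, 2 and 3). Neither age carried a treatment or an engineered allele. Pups were pooled within a litter and the adults were single animals, the adult pancreas was digested through the duct and the pup pancreas by shaking, and the cells were not sorted. Age, sex, pooling and digestion therefore cannot be told apart, and neither can a change within cells from a change in which cells were present. Integrations in all ACS ranged from 7916919 to 11903909 in adult libraries and from 13491534 to 21168463 in P10 libraries. Member ACS were shallow, with a median count of 19 to 28 per adult library and 37 to 50 per P10 library, and 816 of the 821 had an integration in every library. Library sizes were adjusted by TMM (a trimmed mean of the log ratios between libraries), levels are given in CPM (counts relative to the adjusted library size), and positive log2 fold changes mean greater accessibility in adults.

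Sequence is shown for promoters of gamma protocadherin genes, where the starts of *Pcdhga7*, *Pcdhga8* and *Pcdhga9* held Down ACS and those of *Pcdhga5* and *Pcdhga11* did not, and for that of *Pcdh20*. The gamma protocadherin genes stand in a row, each with its own promoter, and the 10-base word held by most of their promoters was found by a search of the RefSeq windows (assembly GRCr8, 250 bases before to 50 after the annotated start). This word, GCTGTTCACC, was in 7 of the 12 windows of gamma a and b genes and, on either strand, in 36 of the 27457 windows of all genes (0.131%). It was picked for its count in these 12 windows, so its high share there follows from the choice. The 36 windows include those 7. Among members the word was held by *Pcdhga5*, *Pcdhga7*, *Pcdhga8*, *Pcdhga9*, *Pcdhga10* and *Pcdhga12*, of which *Pcdhga10* is not shown. *Pcdhgb7*, whose start also held a Down ACS, was not among the holders. Clustered protocadherin promoters are known to share a conserved element, parts of which bind the insulator protein CTCF. In the lines below, capitals mark the word or, for *Pcdhga11*, the stretch nearest to it, which has 2 mismatches. All are on the plus strand, and the first capital stands between positions -116 and -19 from the start.
Pcdhga5 (chr18:29770889-29770958): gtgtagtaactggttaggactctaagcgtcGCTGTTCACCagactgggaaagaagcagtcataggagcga
Pcdhga7 (chr18:29794191-29794260): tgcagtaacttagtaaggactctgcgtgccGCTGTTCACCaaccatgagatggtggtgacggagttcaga
Pcdhga8 (chr18:29804986-29805055): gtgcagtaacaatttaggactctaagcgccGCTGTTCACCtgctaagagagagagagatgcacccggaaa
Pcdhga9 (chr18:29815769-29815838): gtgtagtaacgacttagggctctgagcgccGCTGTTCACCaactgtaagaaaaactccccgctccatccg
Pcdhga11 (chr18:29834460-29834529): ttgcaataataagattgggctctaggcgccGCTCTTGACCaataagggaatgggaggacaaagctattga
Pcdhga12 (chr18:29843848-29843917): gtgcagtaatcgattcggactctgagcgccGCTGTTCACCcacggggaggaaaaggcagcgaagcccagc

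The promoter of *Pcdh20* is shown because its ACS had the smallest p of all lowered members. Its window on the minus strand, with the reverse complement of a CCAAT box in capitals, reads as follows.
Pcdh20 (chr15:70840249-70840548): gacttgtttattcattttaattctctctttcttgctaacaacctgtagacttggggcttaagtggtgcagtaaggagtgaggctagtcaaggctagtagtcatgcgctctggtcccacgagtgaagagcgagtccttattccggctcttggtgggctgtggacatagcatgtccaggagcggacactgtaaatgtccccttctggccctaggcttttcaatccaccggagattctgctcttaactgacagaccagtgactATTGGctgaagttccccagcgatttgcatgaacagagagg
Windows were found for 28 of the 39 symbols. On either strand, CCAAT was in 16 of these 28 and in 37.7% of all windows. The E-box core CAGGTG, which Snail, ZEB and Scratch factors bind, was in 3 of the 28 (*Pcdh15*, *Pcdhga8* and *Pcdhga9*) and in 18.7% of all windows, and TGANTCA, bound by AP-1, was in 1 (*Cdh20*) and in 7.33%. These matches describe the windows alone. The ACS coordinates that follow are those of the older assembly Rn5 and cannot be set against the GRCr8 positions above.

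Between the ages, 108 member ACS (13.2%) were Up in adults and 46 (5.60%) were Down, where all ACS gave 12.3% Up and 6.63% Down. A call required p under 0.05 and a false discovery rate under 0.2 in edgeR's quasi-likelihood test, adjusted over all ACS. Without a filter on counts, the members as a whole thus had shares near those of all ACS. Their median log2 fold change was -0.02, against -0.01 over all ACS. Libraries of the 2 ages did not overlap at 24.7% of the members and at 24.7% of all ACS. Of the called members 70.1% were Up, beside 65.0% of all called ACS. When libraries were scaled by column sums these shares were 56.1% (92 Up and 72 Down) and 49.3%. The Down count moved with single libraries, being 21 (2.56%) without P10 replicate 2 and 24 (2.92%) without P10 replicate 3. In these fits 3.23% and 4.17% of all ACS were Down. Among ACS with a mean count of at least 50, 78 of 316 members were Up (24.7%) and 35 Down (11.1%). All such ACS gave 15.4% Up and 11.8% Down, so with this filter the Up share of members was higher.

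By family the counts were uneven. Of the 44 ACS of type I cadherins 15 (34.1%) were Up and 0 Down, with 0 Down also at an unadjusted p under 0.05, by limma's voom test and by DESeq2, but 1 Down without Adult replicate 6 and 21 with total reads. Type II cadherins gave 41 Up and 13 Down of 321, the other cadherins 10 Up and 3 Down of 39, and the non-clustered protocadherins 41 Up and 25 Down of 386. Scaled by column sums, type II cadherins gave 33 and 24 and the non-clustered protocadherins 35 and 38, with Down in the majority for the latter. All ACS then gave 10.3% Up and 10.6% Down, also with more Down than Up. Clustered protocadherins gave 1 Up and 5 Down of 31, with a median log2 fold change of -0.32. Without Adult replicate 4, P10 replicate 2 or P10 replicate 3, the Up count of the other cadherins was 5, 4 and 4. Without 1 library the Down count of type II cadherins was 5 (P10 replicate 2), 8 (Adult replicate 4 or P10 replicate 3) or 23 (P10 replicate 1), and that of non-clustered protocadherins 12 and 10 (P10 replicates 2 and 3). That of clustered protocadherins was 3 without Adult replicate 6, P10 replicate 1 or P10 replicate 2. The bars by family set these shares beside those of all ACS.

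**Figure D1:**
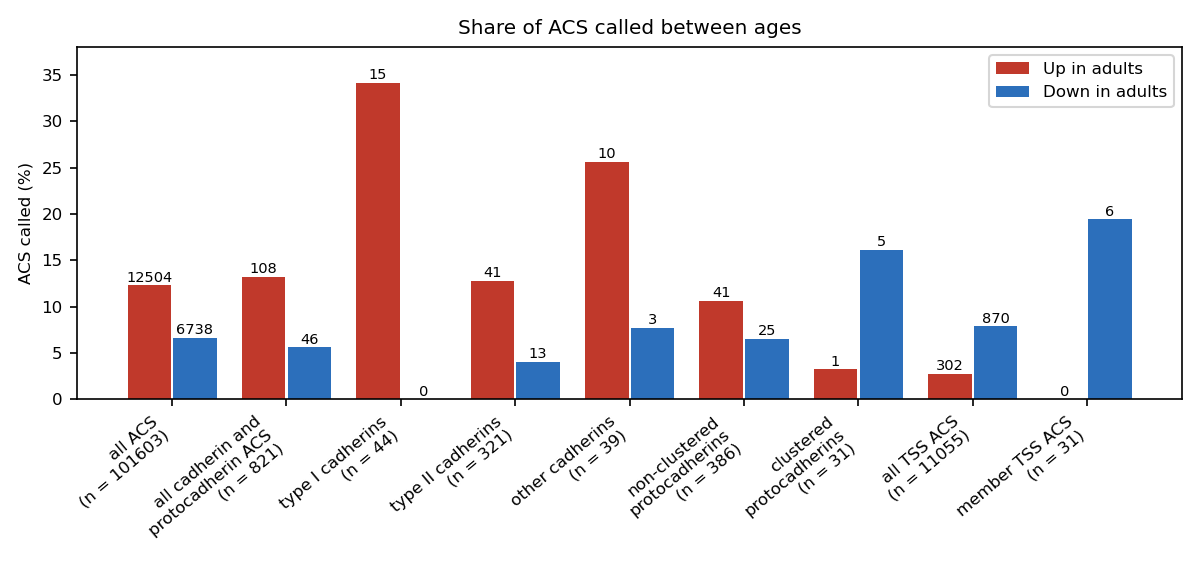
Percent of ACS called Up (red) or Down (blue) in adults, for all ACS, all cadherin and protocadherin ACS, each family, and the class within 1 kb of a transcription start site (TSS). Numbers above the bars are ACS called. Type I cadherins reached 34.1% Up, while the member TSS class held 6 Down and 0 Up. Of these 6 Down ACS, 4 were at gamma protocadherin starts.

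The share of all integrations that fell in members did not separate the ages. It was 0.460%, 0.462% and 0.503% in adults and 0.422%, 0.458% and 0.478% at P10 (0.475% ± 0.0245 and 0.452% ± 0.0285, SD, n = 3 each, exact permutation test, two-sided, p = 0.400). Adult and P10 values interleaved. Type I cadherins took 0.0525%, 0.0448% and 0.0524% in adults and 0.0379%, 0.0370% and 0.0382% at P10, which did not overlap. Clustered protocadherins took 0.0155%, 0.0150% and 0.0127% in adults and 0.0163%, 0.0160% and 0.0163% at P10, with every adult library lower. Both comparisons gave an exact permutation p = 0.1, the smallest that 3 against 3 libraries allow, and 0.300 after adjustment over 6 comparisons.

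The members lay farther from genes than most ACS. The median distance to the nearer end of the nearest gene was 404892 bp, against 46500 bp for all ACS, and 363 members (44.2%) lay beyond 500 kb, against 8.05% of all ACS. This distance is not 0 for an ACS inside a gene. Beyond 500 kb, 0 members but 261 of the 8175 ACS of all genes were inside the gene. They were also narrower, with a median width of 313 bp against 373 bp. Few touched a promoter. The TSS class held 31 members, the proximal class (1 to 10 kb) 38 and the distal class 752. Distal members were Up in 106 cases and Down in 37, shares of 14.1% and 4.92%, beside 13.8% and 6.45% of all distal ACS. Members inside the body of the nearest gene were Up in 29 of 141 cases (20.6%), beside 16.0% of all such ACS. A nearest gene at such distances is only an assignment, and which gene an ACS acts on was not measured.

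**Figure D2:**
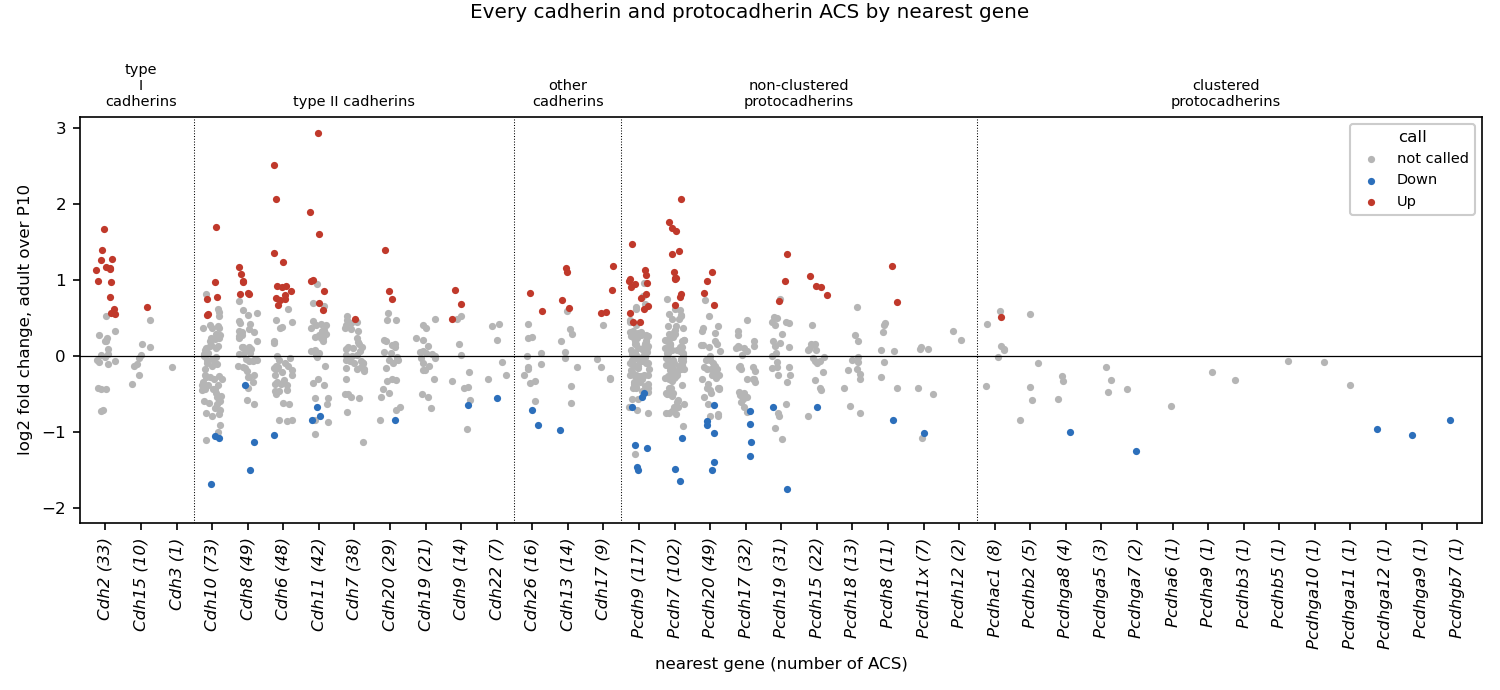
Log2 fold change (adult over P10, vertical axis) of each of the 821 ACS, arranged by nearest gene with the number of ACS in brackets and by family between dotted lines. Red is Up, blue Down and grey not called. *Cdh2* holds 14 red points and no blue one, whereas *Pcdh17* holds 4 blue and no red. Positions within a gene's column are random.

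Among type I cadherins, *Cdh2* held 14 of the 15 Up ACS. This gene encodes N-cadherin, the cadherin of neural and endocrine cells. Of its 33 ACS 14 were Up and 0 Down, with 15 Up and 0 Down at an unadjusted p under 0.05 and 14 and 0 by both voom and DESeq2. Leaving out any 1 library gave 11 to 15 Up, with 1 Down without Adult replicate 6, while scaling to total reads turned the count to 1 Up and 12 Down. Summed over the 33 ACS, accessibility was 479.9, 371 and 466 CPM in adults and 278, 293 and 304 CPM at P10, a ratio of 1.51 between the means, with all adult libraries higher (exact permutation p = 0.1). The raised sites stood on both sides of the gene and within it. Inside the gene 4 of 14 were Up, upstream 4 of 13, and downstream all 6 of 6.

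The one with the smallest p lay inside *Cdh2* at chr18:8185052-8185646, 32954 bp from the start. It held 69.3, 47.3 and 69.1 CPM in adults and 28.5, 24.6 and 30.8 CPM at P10, so the lowest adult library exceeded the highest P10 library. Its log2 fold change was 1.14 ± 0.17 (SE, edgeR, adjusted p = 7.19e-05). The 6 downstream ACS formed an unbroken run of 221 kb, from 353735 to 574426 bp past the start, with log2 fold changes of 0.57 to 1.67. Within that run chr18:7729216-7729861 held 24.0, 16.7 and 19.7 CPM in adults and 7.62, 6.35 and 8.88 CPM at P10 (1.40 ± 0.22, adjusted p = 0.000118). Far upstream, chr18:9451187-9451710 held 22.2, 20.7 and 24.9 CPM against 7.67, 11.3 and 9.04 CPM (1.28 ± 0.21, adjusted p = 0.000176). All 3 stayed called without any 1 library. The largest *Cdh2* ACS, 6254 bp inside the gene, was not called, at 104, 82.3 and 97.6 CPM in adults and 77.7, 73.3 and 76.5 CPM at P10 (0.32 ± 0.15, adjusted p = 0.204), although its libraries did not overlap either. It was called Up without Adult replicate 5 (adjusted p = 0.0501), by voom (0.156) and with robust moderation (0.162), and turned to -0.52 and Down with total reads (0.0628). No *Cdh2* ACS belonged to the TSS class.

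The other type I genes were quiet. *Cdh15*, the M-cadherin of muscle, had 1 Up among 10 ACS, and 0 Down by edgeR, at an unadjusted p under 0.05, by voom and by DESeq2. *Cdh3*, or P-cadherin, had a single ACS at its start with 10.0, 8.76 and 12.9 CPM in adults and 13.3, 10.6 and 11.0 CPM at P10, which overlapped.

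**Figure D3:**
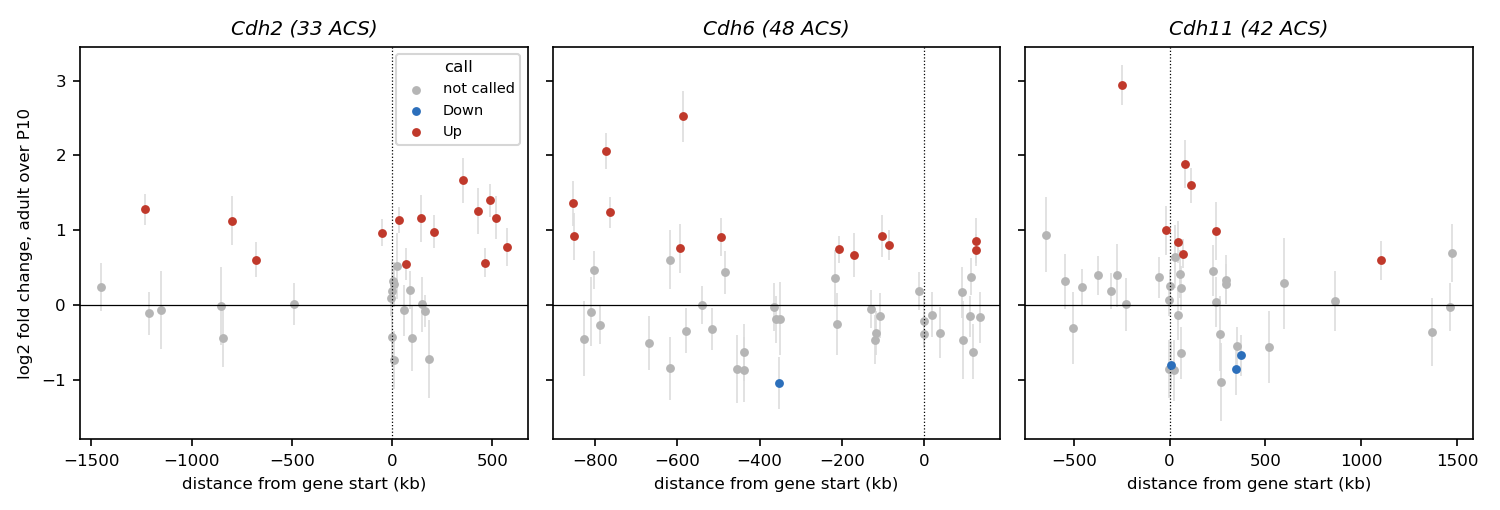
Log2 fold change (adult over P10) of each ACS of *Cdh2*, *Cdh6* and *Cdh11* against its distance from the gene start in kb, negative upstream. Pale bars are standard errors, red is Up, blue Down, grey not called. The 6 red points at the right of the *Cdh2* panel are its downstream run, and the top point of the *Cdh11* panel is the ACS with a log2 fold change of 2.94. With libraries scaled to total reads the *Cdh2* calls turned to 1 Up and 12 Down.

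Type II cadherins included the largest single change. *Cdh11*, known as the cadherin of osteoblasts and mesenchymal cells, had 8 Up and 3 Down of 42 ACS. The ACS at chr19:2127786-2128056, 246322 bp upstream, held 14.2, 13.5 and 14.7 CPM in the adult libraries. At P10 it held 1.44, 2.35 and 1.80 CPM. The log2 fold change was 2.94 ± 0.27 (7.66-fold, edgeR, adjusted p = 9.95e-08), the largest of the 821 members, and the call held under every alternative in which the ACS was tested, total reads included. From just before the start into the gene, 5 of 15 ACS over 135 kb were Up. Its start sites did not follow. At chr19:2373864-2374407 the libraries held 17.7, 13.2 and 15.7 CPM in adults and 12.2, 15.5 and 16.9 CPM at P10, fully overlapping (0.07 ± 0.21, -0.74 with total reads), and the ACS 788 bp inside the gene gave 0.25 ± 0.22. The 3 Down calls fell to 0 without Adult replicate 4 or P10 replicate 3 and to 1 without P10 replicate 2.

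*Cdh6*, the K-cadherin first found in kidney, had 13 Up and 1 Down of 48 ACS. The Down count was 2 without Adult replicate 4, 5 without P10 replicate 1 and 4 with column sums. Of its 37 upstream ACS 11 were Up, in 3 runs whose nearest members lay 86203, 493302 and 763290 bp from the start. In the farthest run, chr2:80674738-80675143 held 17.8, 14.4 and 15.2 CPM in adults and 3.35, 4.35 and 3.70 CPM at P10 (2.06 ± 0.24, adjusted p = 2.24e-06). In the middle one, chr2:80863329-80863548 held 9.49, 4.48 and 8.77 CPM against 1.12, 1.43 and 1.43 CPM (2.52 ± 0.34, adjusted p = 1.36e-05). Neither pair of groups overlapped, and both calls held under every alternative in which these ACS were tested. Its Down site, chr2:81096140-81096503, was weakly open at 1.99, 1.17 and 2.32 CPM against 3.72, 3.35 and 4.07 CPM (-1.04 ± 0.35, adjusted p = 0.0625). The start of *Cdh6* pointed the other way from its upstream runs, with 23.8, 23.6 and 25.4 CPM in adults below 27.0, 31.7 and 36.4 CPM at P10 (-0.39 ± 0.18). Its adjusted p of 0.2 just missed the limit, and the site was called Down without P10 replicate 1 (0.0859) and under 7 other choices of scaling, filter, sites or moderation.

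The remaining type II genes are best known from neurons, apart from *Cdh19* of Schwann cells. *Cdh8* had 7 Up and 3 Down of 49 ACS, *Cdh10* 6 and 3 of 73, *Cdh20* 3 and 1 of 29, and *Cdh9* 3 and 1 of 14. *Cdh7* had 1 Up and 0 Down of 38, *Cdh22* 0 Up and 1 Down of 7, and *Cdh19* 0 in either direction of 21. In each of these 4 zero counts edgeR at an unadjusted p under 0.05, voom and DESeq2 also gave 0. The most open type II ACS of all stood 198148 bp upstream of *Cdh8* at chr19:5826266-5827203, with 135, 137 and 170.0 CPM in adults and 178, 206 and 188 CPM at P10. All P10 libraries were higher (-0.38 ± 0.14, adjusted p = 0.0991), but the call was lost without Adult replicate 4 (0.229) or P10 replicate 2 (0.356). Also Down were chr2:90099548-90100045 near *Cdh10*, at 2.89, 2.73 and 4.64 CPM against 6.93, 8.13 and 6.61 CPM (-1.09 ± 0.29, adjusted p = 0.0145), and a faint site of *Cdh8* at chr19:5395982-5396210, at 0.361, 0.584 and 1.93 CPM against 2.18, 3.57 and 1.96 CPM (-1.50 ± 0.48, adjusted p = 0.0493). The latter was lost without Adult replicate 4 (0.226) or P10 replicate 2 (0.251). At the starts of *Cdh8* and *Cdh10* the libraries overlapped (0.46 ± 0.32 and -0.09 ± 0.24).

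Of the other cadherins, *Cdh17* and *Cdh13* had more Up than Down calls. *Cdh17* encodes the liver-intestine cadherin, which lacks the catenin-binding tail. It had 4 Up and 0 Down of 9 ACS, with 0 Down also at an unadjusted p under 0.05, by voom and by DESeq2, and all 4 lay within 107 kb around the gene. Its summed level was 126, 115 and 119 CPM in adults and 100.0, 81.8 and 76.8 CPM at P10, without overlap. The site chr5:30086126-30086552, 14201 bp upstream, held 15.5, 11.9 and 17.0 CPM against 8.18, 7.63 and 8.35 CPM (0.87 ± 0.22, adjusted p = 0.0119), and one 5181 bp inside the gene held 6.78, 8.28 and 5.54 CPM against 4.93, 1.57 and 2.43 CPM (1.18 ± 0.33, adjusted p = 0.0227). The most open, 17912 bp upstream, held 50.9, 43.6 and 39.1 CPM against 35.8, 28.2 and 26.3 CPM (0.56 ± 0.17, adjusted p = 0.0380), and was lost without P10 replicate 2 (0.201) or P10 replicate 3 (0.209).

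*Cdh13*, the membrane-anchored T-cadherin that binds adiponectin, had 4 Up and 1 Down of 14 ACS, 10 of them inside the gene. Upstream, chr19:61479630-61479981 held 7.23, 8.96 and 11.9 CPM in adults and 5.72, 3.14 and 3.96 CPM at P10 (1.11 ± 0.28, adjusted p = 0.0105). Its Down site had under 2 CPM in every library (-0.98 ± 0.45, adjusted p = 0.198) and kept its call in only 2 of 6 fits that left out a library, the losses being without Adult replicates 5 (0.295) and 6 (0.415) and P10 replicates 2 (0.409) and 3 (0.360). At its start the libraries overlapped (0.35 ± 0.34). *Cdh26* had 2 Up and 2 Down of 16. Its Down sites held 2.71, 3.60 and 2.19 CPM against 6.28, 5.85 and 4.07 CPM (-0.91 ± 0.31, adjusted p = 0.0643, 0.201 without Adult replicate 6) and 4.52, 6.04 and 4.90 CPM against 7.95, 10.3 and 7.14 CPM (-0.71 ± 0.26, adjusted p = 0.0932, 0.250 without Adult replicate 4 and 0.387 without P10 replicate 2).

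**Figure D4:**
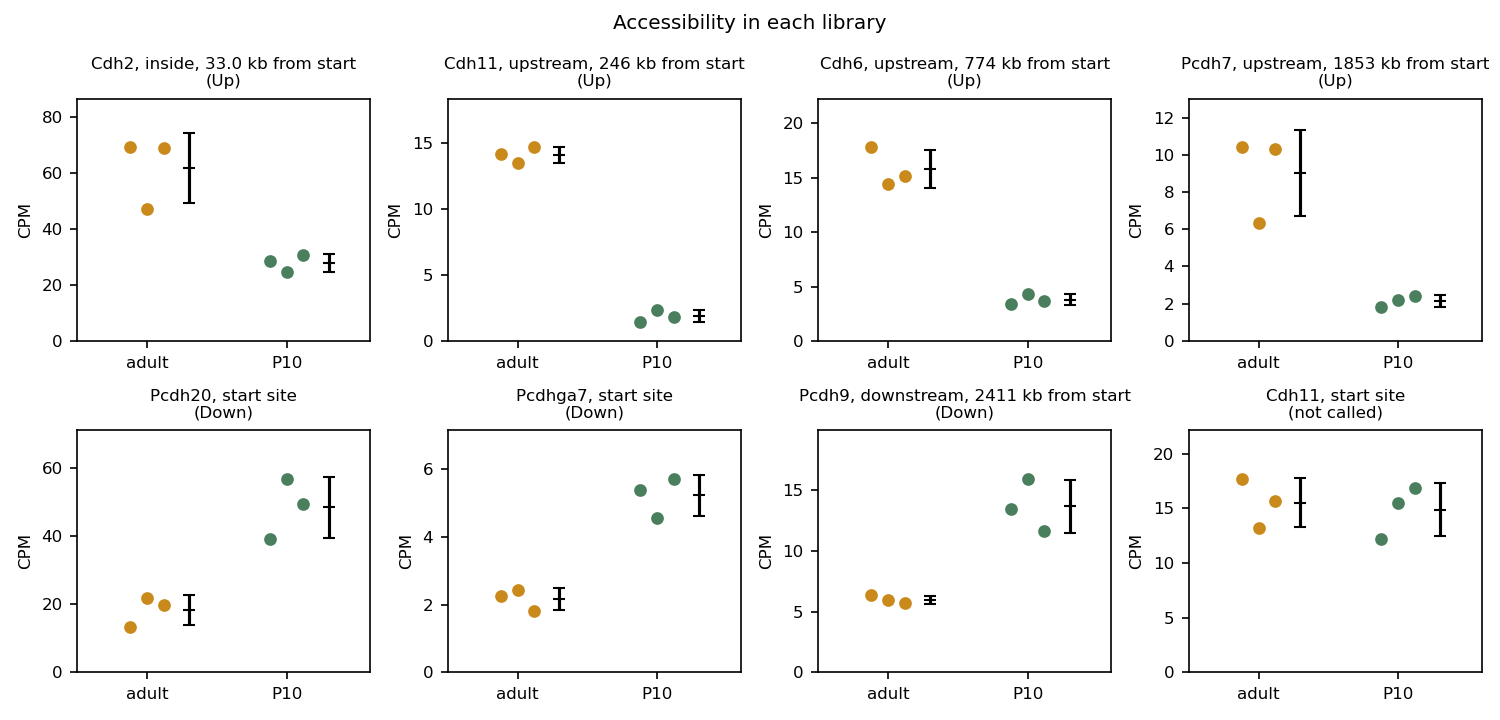
CPM of 8 ACS in each library, adults in amber and P10 in green, with mean and SD (n = 3) beside the points. The vertical axes start at 0 and differ between panels. Adult and P10 points are apart in the first 7 panels and mixed at the *Cdh11* start site.

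Non-clustered protocadherins held the largest genes by number of ACS. *Pcdh9* had 15 Up and 7 Down of 117 and *Pcdh7* 13 Up and 3 Down of 102. Without Adult replicate 6 *Pcdh9* had 8 Up, and without P10 replicates 2 or 3 it had 4 and 3 Down. *Pcdh7* had 1 Down without Adult replicate 4 or P10 replicate 3, and had 5 without Adult replicate 5 or P10 replicate 1. Both genes encode protocadherins found in brain, with *Pcdh7* also in heart. In *Pcdh9*, a run of 205 kb inside the gene held 14 ACS of which 6 were Up, with log2 fold changes of 0.45 to 1.13. Near *Pcdh7* the raised sites lay far out. At chr14:57069597-57069818, 1852772 bp upstream, the libraries held 10.4, 6.33 and 10.3 CPM in adults and 1.81, 2.21 and 2.43 CPM at P10 (2.06 ± 0.30, adjusted p = 3.16e-05). At chr14:56603316-56603769, 1386491 bp upstream, they held 12.7, 9.35 and 16.1 CPM against 3.67, 3.35 and 5.07 CPM (1.64 ± 0.27, adjusted p = 0.000138). On the other side, chr14:53106965-53107216 held 7.32, 7.99 and 10.3 CPM against 2.65, 2.64 and 2.64 CPM (1.68 ± 0.28, adjusted p = 0.000178). All 3 were called under every alternative in which they were tested. The *Pcdh7* start sites gave -0.69 ± 0.35 and -0.29 ± 0.23, neither called, although the former was Down without P10 replicate 2 (adjusted p = 0.153) and with column sums (0.175).

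The start of *Pcdh20* had the smallest p of all Down members. The ACS at chr15:75359031-75359595 spans the annotated start, and its promoter sequence is printed above. It held 13.4, 21.8 and 19.6 CPM in adults and 39.0, 56.7 and 49.2 CPM at P10, with no overlap. The log2 fold change was -1.40 ± 0.20 (2.65-fold higher at P10, edgeR, adjusted p = 2.29e-05), from -1.56 to -1.22 without any 1 library, and was Down under every alternative. The gene as a whole had 4 Up and 6 Down of 49 ACS, and its sum overlapped between ages. Other Down sites of the family with small p were chr15:78875572-78875997, downstream of *Pcdh9*, with 6.33, 5.94 and 5.67 CPM against 13.4, 15.9 and 11.6 CPM (-1.18 ± 0.24, adjusted p = 0.00135), and chr14:55863695-55863951, upstream of *Pcdh7*, with 0.994, 1.07 and 1.03 CPM against 1.91, 3.42 and 3.49 CPM (-1.49 ± 0.40, adjusted p = 0.0166).

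*Pcdh17* and *Pcdh11x* were called in the Down direction alone. Of the 32 ACS of *Pcdh17* 4 were Down and 0 Up, with 0 Up also at an unadjusted p under 0.05, by voom and by DESeq2. Summed accessibility was 112, 125 and 123 CPM in adults and 133, 149.6 and 165 CPM at P10, every adult library lower (exact permutation p = 0.1). The X-linked *Pcdh11x* likewise had 0 Up and 1 Down of 7, with 0 Up at an unadjusted p under 0.05 and by both other tools, and 0 Down by DESeq2. *Pcdh19*, also X-linked and known from epilepsy, had 3 Up and 2 Down of 31. Since adults were male and the pups of both sexes, copy number of the X cannot be told apart from age at these 2 genes. *Pcdh15*, of the tip links of hair cells, had 4 Up and 1 Down of 22, and *Pcdh8* 2 Up and 1 Down of 11. *Pcdh18* had 0 of 13 in either direction by the 3 tools, with 1 Down at an unadjusted p under 0.05. The most open member of the family, 1062 bp upstream of *Pcdh9*, held 106, 85.8 and 114 CPM in adults and 108, 113 and 118 CPM at P10, which overlapped (-0.15 ± 0.15).

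Summing CPM over the ACS of each of the 39 genes, adult libraries stood entirely above P10 for 10 genes and entirely below for 4, and overlapped for 25. Among those above were *Cdh2*, *Cdh6*, *Cdh11* and *Pcdh7*, at ratios of 1.51, 1.30, 1.30 and 1.20. The lowest exact permutation p was 0.1 and 0.279 after adjustment over the 39 genes. Such sums were not made for genes outside the members. The counts of 10 and 4 genes therefore have no share over all genes beside them, and are not read as a trait of these genes.

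Clustered protocadherins lie in 3 rows on chromosome 18, and are described row by row. All 14 gamma ACS had log2 fold changes below 0, from -1.26 to -0.08, and 5 were Down and 0 Up. Alpha ACS numbered 10, with 1 Up and 0 Down, and ranged from -0.66 to 0.59. The 7 beta ACS ranged from -0.84 to 0.55, and 6 of them were below 0, so most values lay below 0 in this row too. They had 0 calls, with 1 Down at an unadjusted p under 0.05 and 0 by voom and DESeq2. For the gamma Up and alpha Down counts of 0, the unadjusted limit, voom and DESeq2 also gave 0. The sum over the 7 gamma TSS ACS was 11.1, 14.6 and 10.3 CPM in adults and 24.8, 20.0 and 18.1 CPM at P10, so no library overlapped and the ratio of means was 0.572 (exact permutation p = 0.1). The sum over the 5 alpha TSS ACS was 45.7, 41.5 and 34.3 CPM in adults and 38.3, 35.1 and 38.5 CPM at P10, which overlapped (ratio 1.09, exact permutation p = 0.5). Whether the rows differ from each other was not tested. The plot of the cluster in order shows the gamma triangles below the line.

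**Figure D5:**
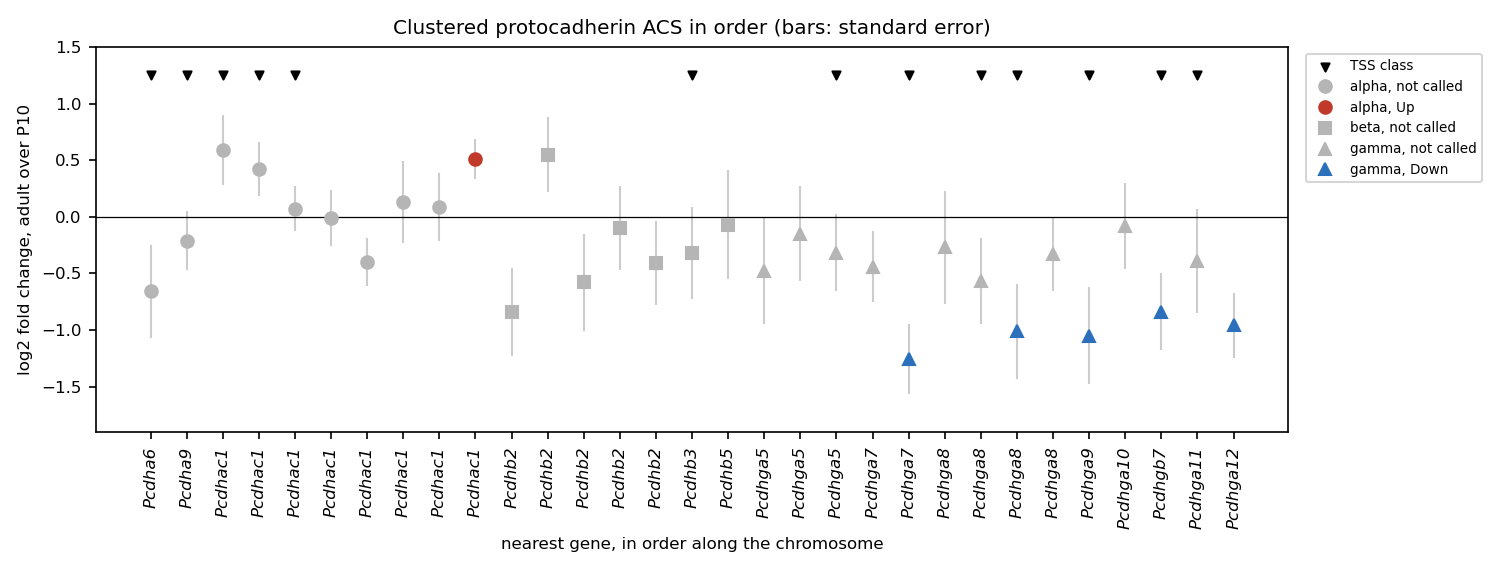
Log2 fold change (adult over P10) with standard error of the 31 clustered protocadherin ACS in their order along the chromosome, alpha as circles, beta as squares and gamma as triangles. Blue is Down, red Up, grey not called, and black marks on top show the TSS class. All 14 triangles and 6 of the 7 squares lie below 0, and the 5 Down calls are all gamma.

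The Down call with the smallest p among gamma ACS was at the start of *Pcdhga7*, chr18:30558175-30558668, whose window is printed above. It held 2.26, 2.43 and 1.80 CPM in adults and 5.39, 4.56 and 5.71 CPM at P10 (-1.26 ± 0.31, edgeR, adjusted p = 0.00917), and held without any 1 library. The site 1674 bp inside *Pcdhga12* held 4.97, 6.62 and 2.32 CPM against 10.2, 8.92 and 8.46 CPM (-0.96 ± 0.29, adjusted p = 0.0340). The start of *Pcdhgb7* held 1.81, 2.92 and 1.55 CPM against 4.42, 3.71 and 3.22 CPM (-0.84 ± 0.34, adjusted p = 0.139). Unlike the former sites, it lost its call without Adult replicates 4 (0.312) or 6 (0.345) and without P10 replicates 1 (0.296) or 2 (0.265). *Pcdhga8* had 1 Down start site of 2 (-1.01 ± 0.42, at most 1.27 CPM in adults), and *Pcdhga9* 1 Down start site whose libraries overlapped (-1.05 ± 0.43). The starts of *Pcdhga5* and *Pcdhga11* were not called (-0.32 ± 0.34 and -0.39 ± 0.46). The shared word was in the windows of *Pcdhga7*, *Pcdhga8* and *Pcdhga9*, whose starts held Down ACS, and in those of *Pcdhga5*, *Pcdhga10* and *Pcdhga12*. *Pcdhgb7*, whose start was Down, was not among the genes found to hold it. Counts were low here, and the 4 Down gamma TSS ACS became 1 without Adult replicate 4, Adult replicate 6 or P10 replicate 1, and 2 without P10 replicate 2.

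In the alpha row, the Up site was distal, 78763 bp past the start of *Pcdhac1* at chr18:29960149-29960719, with 43.5, 32.4 and 31.1 CPM in adults and 26.2, 27.0 and 22.0 CPM at P10 (0.51 ± 0.18, adjusted p = 0.0763). Its call was lost without Adult replicate 4 (0.342) or P10 replicate 3 (0.298), and its value turned to -0.33 with total reads. The 3 start sites under that symbol, which covers 2 gene identifiers, gave 0.59 ± 0.31, 0.42 ± 0.24 and 0.07 ± 0.20, none called. The second of them was Up without Adult replicate 6 (adjusted p = 0.189) or P10 replicate 1 (0.2). *Pcdhb2*, the beta gene with the most ACS, had 0 calls among 5, and 1 Down at an unadjusted p under 0.05.

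Taking the members at transcription start sites as a group, 6 of 31 were Down (19.4%) and 0 Up, beside 7.87% Down and 2.73% Up of all TSS ACS. Of these 6 Down ACS, 4 were among the 7 gamma TSS ACS, so the share rests mostly on that row of genes. At an unadjusted p under 0.05 there were 0 Up, as with voom and DESeq2. The Down count was 4 by DESeq2, 3 with a mean count of at least 50 and 2 at an FDR under 0.05. It was 3 without Adult replicate 4 and 2 without Adult replicate 6, and each of 2 fits (without Adult replicate 6 and without P10 replicate 1) called 1 Up. Their summed level was 240.4, 227 and 239 CPM in adults and 270.1, 281 and 305 CPM at P10, with all adult libraries lower (exact permutation p = 0.1). TSS ACS of all genes took 24.8% to 26.4% of adult and 27.4% to 28.6% of P10 integrations. That share carries no TMM adjustment, so it is not on the scale of the CPM sum. With TMM their median log2 fold change was -0.10, beside -0.29 for the member TSS ACS.

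The partners of cadherins were read from the same fit. Of 33 genes for catenins and other junction proteins, 25 had an ACS, and of their 377 ACS 57 were Up (15.1%) and 23 Down (6.10%), or 47 and 36 with column sums, where all ACS gave 12.3% and 6.63% (10.3% and 10.6% with column sums). *Ctnnb1*, beta-catenin, had 3 Up and 1 Down of 14. The kinase gene *Fer* and the phosphatase gene *Ptprm*, whose products act on junctions, each had 9 Up, of 22 and 27 ACS. The sites with the smallest p were an Up site upstream of *Ctnnd2*, delta-catenin, at 7.32, 6.43 and 5.54 CPM in adults and 1.95, 0.856 and 1.74 CPM at P10 (2.05 ± 0.33, adjusted p = 0.000134), and one inside *Ptprm* at 28.9, 18.4 and 32.2 CPM against 8.97, 10.9 and 11.7 CPM (1.33 ± 0.22, adjusted p = 0.000168). In the Down direction they were sites upstream of *Mllt4*, afadin (-2.07 ± 0.41, adjusted p = 0.00110), and of *Ctnnd2* (-2.21 ± 0.44, adjusted p = 0.00130).

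Of 27 further genes of the cadherin superfamily, *Cdh1* and *Cdh5* included, 18 had an ACS. Of their 239 ACS 49 were Up (20.5%) and 7 Down (2.93%), or 40 and 12 with column sums. All ACS gave 12.3% Up and 6.63% Down, or 10.3% and 10.6% with column sums. The giant cadherin genes *Fat3* and *Fat1* gave 13 Up of 22 and 10 Up of 41, with 1 Down each. *Cdh1*, E-cadherin, had 4 Up of 17. An ACS upstream of *Cdh5*, the endothelial cadherin, held 20.4, 15.7 and 21.8 CPM in adults and 4.09, 5.56 and 5.29 CPM at P10 (1.96 ± 0.23, adjusted p = 3.12e-06). One upstream of *Fat3* held 20.9, 21.7 and 24.4 CPM against 6.46, 8.56 and 6.24 CPM (1.66 ± 0.22, adjusted p = 9.78e-06). Down sites lay near *Dsg4* (-1.71 ± 0.39, adjusted p = 0.00475) and *Fat1* (-0.84 ± 0.26, adjusted p = 0.0404).

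Because the islets were not sorted, the promoters of cell type markers were summed per library. Beta cell markers gave 179 to 245 CPM in adults and 219 to 353 CPM at P10, and alpha cell markers 116 to 138 and 123 to 146 CPM. These were the 2 highest sums, over 7 of 10 and 5 of 6 genes with a TSS ACS, and no immune marker of 10 had one. Because the lists differ in the number of such genes, their sums do not rank the cell types. Delta and PP cell markers (57.7 to 67.2 against 74.9 to 95.6 CPM), duct markers (35.0 to 39.0 against 44.4 to 50.5 CPM) and mesenchymal markers (50.6 to 55.1 against 56.2 to 65.2 CPM) were lower in every adult library, and endothelial markers too, by a margin within rounding (28.8 to 38.2 against 38.2 to 44.5 CPM). Acinar and Schwann markers overlapped (18.4 to 27.1 against 24.2 to 29.3 CPM, and 12.6 to 19.9 against 16.7 to 23.8 CPM). Only 3 of the 12 acinar and 2 of the 8 Schwann and neural genes had a TSS ACS. The lowest exact permutation p was 0.1 and 0.225 after adjustment over 9 lists. Of the 12 endothelial genes 4 had a TSS ACS, *Pecam1* and *Cdh5* not among them, and of the 12 mesenchymal genes 8. As a share of integrations without TMM adjustment, all TSS ACS together took 24.8% to 26.4% in adults and 27.4% to 28.6% at P10 (ratio 0.903). The marker sums are in TMM-adjusted CPM, so their ratios are not on the scale of that share. They were 0.903 for the mesenchymal list and 0.795, 0.769 and 0.732 for the endothelial, duct and delta and PP lists. The part of these sums in the Down promoters or in the Up sites of *Cdh2*, *Cdh6* and *Cdh11* was not tested.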

How the data were processed

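ATAC-seq libraries of rat islets were compared between adults and pups. Per the labels and the study's methods, the authors checked reads with FastQC 0.11.2, aligned them to Rn5 with BWA 0.7.13, removed mitochondrial reads and those with a mapping quality under 30 with SAMtools 1.3, called peaks with MACS2 2.1.1 on the concatenated libraries of each age, joined them and counted integrations with pyDNase. Removal of duplicates is not given in the sources used here. They deposited whole-number counts per ACS and library without normalization, with the nearest gene, its distance and a class. Their columns of fold change, F, p-value and FDR were not used.

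The 101941 entries hold 101603 distinct ACS, and each was tested once. Counts were fitted with edgeR 4.0.16 (TMM, quasi-likelihood test, age as the only term, no filter) in R 4.3.3, with Benjamini-Hochberg adjustment over all ACS and the study's limits (p under 0.05, FDR under 0.2). The standard error is the absolute log2 fold change divided by the square root of F. Shares and sums of single libraries were put to two-sided exact permutation tests, which cannot go below 0.1. Libraries of 1 age differed by 3.35 to 7.81 in chi-square per degree of freedom, so none was a repeat of another. Nothing says that litters or rats shared a batch, and p-values measure the spread between these libraries. On simulated counts for this comparison over 101603 ACS, 37% of 200 ACS changed by 1 on the log2 scale were called rightly, and 10 of 101403 unchanged ACS were called. The data gave far more calls, 12504 Up and 6738 Down, so in the simulation the same FDR limit falls at a smaller p. Its rates of right and false calls therefore do not carry over to the data.

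Genes were named where they had 5 or more ACS or any call. ACS were given by library where they were, in each family, among the 3 Up and the 3 Down with the smallest p whose libraries did not overlap, the most open one, or a TSS ACS of a gene so named, along with the 2 smallest p per direction in each partner list. Start sites of *Cdh3*, *Pcdhga5*, *Pcdhga8*, *Pcdhga9* and *Pcdhga11*, runs of 3 or more called ACS of 1 gene at most 100 kb apart, and the comparison of gamma with alpha sums were chosen after their values were seen. Members and lists were chosen with earlier results of these data known. Alternatives were limma's voom test, DESeq2, other library sizes, filters, robust moderation, autosomes, a stricter FDR (0.05) and the omission of 1 library at a time. Promoter windows are RefSeq's (GRCr8). Figures used matplotlib 3.10.9.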

Additional observations from a re-analysis of the deposited data

How the results depend on the processing

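Of the 49 named ACS under the alternatives, 695 combinations had the same direction and call, 36 lost the call, 20 gained one and 19 changed sign. With total reads the log2 fold change turned to -0.52 (highest *Cdh2* ACS), -0.74 (the *Cdh11* start and the longest *Pcdhac1* start ACS), -0.33 (*Pcdhac1* distal ACS) and -0.29 (top *Cdh17* ACS), and at sites called in neither fit to -0.60 (the *Cdh11* ACS 788 bp inside), -0.37 (*Cdh8* start), -0.48 (*Cdh13* start) and -0.24 and -0.43 (other *Pcdhac1* starts). The former *Cdh11* and longest *Pcdhac1* start ACS, near 0, gave -0.03 each with column sums, -0.03 and -0.02 with a mean count of at least 50, and -0.07 to 0.17 and -0.03 to 0.18 without 1 library, and the *Cdh10* start -0.19 to 0.02. Total reads, which also count reads outside ACS, moved the median of all ACS and of members to -0.84, and column sums moved them to -0.10 and -0.11, so changes are relative to these shifts. With total reads, Up and Down calls became 11 and 440 for members, 4 and 211 for catenins and junction partners and 10 and 120 for the other superfamily genes. The share of members in all integrations then differed by -0.00776 percentage points (adult minus P10), and that of type I cadherins by -0.000370. At an FDR under 0.05 the calls were 64 and 12, 36 and 6, and 30 and 2. With column sums 72, 36 and 12 were Down, and DESeq2 gave 4 Down for the other superfamily genes. Without any 1 library, members had 79 to 113 Up and 21 to 65 Down, catenins and partners 36 to 63 and 11 to 27, and the other superfamily genes 37 to 49 and 3 to 8. Among marker lists, the acinar difference ran from -3.80 to 0.520 CPM without 1 library, positive without Adult replicate 6, and no other list changed sign. No paired analysis was possible because the ages share no replicate numbers. Depth limits the member ACS, since adult libraries held a median of 19 to 28 integrations in them. The cause of these differences was not tested.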
